A study of Mus musculus with 4 samples.

Results

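Lysosomes are acidic compartments in which peptidases, glycosidases and lipid hydrolases degrade what a cell takes up or recycles. Their lumen is acidified by the vacuolar proton pump, a rotary ATPase with a cytosolic sector that splits ATP and a membrane sector that moves protons, and their membrane is lined by heavily glycosylated proteins. Macrophages, monocytes and neutrophils are rich in these compartments, and the transcription factor TFEB is known to switch on many of the genes together through E-box motifs in their promoters. A set of 41 such genes was drawn by symbol from the 24706 genes measured, by a rule that uses no measured value but was written with earlier results of these data known. It held 11 cathepsins and other peptidases, 8 glycosidases, 8 lipid hydrolases with their activators and carriers, 5 membrane proteins, 7 proton pump genes, and Tfeb with the calcium channel gene Mcoln1. All 41 were found.

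RNA sequencing was compared between 2 libraries labelled wt and 2 labelled cko, all described as mouse myeloid cells. Per the results of the study, wt mice carried floxed PD-1 alleles without Cre (PD-1f/f) and cko mice carried the same alleles with LysM-Cre (PD-1f/f; LysM-Cre), which would give both groups the floxed locus, although its methods for these libraries name only wild-type and PD-1 knockout mice. LysM-Cre is driven from the lysozyme gene Lyz2 and is active in neutrophils, monocytes and macrophages alike. The study describes the material both as CD11b+ cells sorted from liver at postnatal day 3 and as livers at postnatal day 2. The labels give neither an age nor whether each library came from its own animal. The p-values therefore measure only the spread between these libraries, which within the cko group may be technical. The question put by the design is what loss of PD-1 in myeloid cells does to their transcripts. By the account in the results only the cko mice carried LysM-Cre. Loss of PD-1 and the presence of the Cre allele at Lyz2 therefore cannot be told apart in this comparison.

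Levels are in FPKM, fragments scaled by gene length and by sequencing depth. The totals that the FPKM values were scaled to lay between 17691505 and 22212407 reads per library. Pdcd1, the targeted gene encoding PD-1, was at 28.5 and 34.7 FPKM in the wt libraries and 17.1 and 21.4 FPKM in the cko libraries, a log2 fold change of -0.69 ± 0.19 (SE, unadjusted p = 0.0114, limma adjusted p = 0.218). Neutrophil, monocyte and macrophage transcripts were present in all 4 libraries, while all 6 dendritic cell markers and the T cell genes Cd3e, Cd3g and Trac stayed below 1 FPKM in each. The Y-linked gene Ddx3y stood at 24.9 FPKM in wt replicate 2 and at or below 0.00866 FPKM in the other libraries. Xist was at 0.0119 FPKM in wt replicate 2 and between 4.91 and 7.98 FPKM in the others. Wt replicate 2 thus had the pattern of male cells and the other libraries that of female cells, so the wt libraries came from different animals. Sex was not balanced between the groups, and its effect was not tested. The summed FPKM of 16 macrophage and Kupffer cell markers was 549.97 and 400.4 in wt and 478.4 and 855.4 in cko, that of 9 late neutrophil markers was 87334 and 63762 in wt and 44109 and 40767 in cko, most of it from S100a8 and S100a9, and that of 9 erythroid markers was 3714 and 2334 in wt and 1416 and 1515 in cko. Of the 9 late neutrophil markers, 5 were lower and 3 higher (Il1r2, Csf3r and Cxcr2) in cko at an unadjusted p under 0.05. Of all genes tested, 4.95% were lower and 11.4% higher at that threshold. The 10 hepatocyte markers held 0.0146% to 0.0318% of the summed FPKM of a library, and the 9 early neutrophil markers 13.1% to 16.6%. In such bulk libraries, fewer cells of a type and less RNA per cell cannot be told apart.

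The promoters of several of these genes carry the E-box forms that TFEB is known to bind. RefSeq promoter windows of GRCm38.p6, from 250 bases before to 50 after a start site, were matched to 35 of the 41 genes, and both strands were searched for CACGTG and for its extensions TCACGTGA and GTCACGTG, which overlap each other. An extended form was present in 9 of the 35 promoters (25.7%), in 13 of 69 other lysosomal genes (18.8%), in 408 of 7443 tested genes with a window (5.48%) and in 749 of 27025 genes of the whole table (2.77%). The shorter CACGTG was present in 11 of 35 (31.4%), against 12.1% of the tested genes and 8.09% of the table. For each of the 9 promoters, 1 match is shown to let the shared motif and its flanks be read side by side, 5′ to 3′ on the strand of the gene, with the match in capitals.

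Ctsa, chr2:164833739-164833787, + strand: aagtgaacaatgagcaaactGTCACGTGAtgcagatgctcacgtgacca
Ctsd, chr7:142387898-142387946, - strand: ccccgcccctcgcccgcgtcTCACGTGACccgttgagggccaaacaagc
Lgmn, chr12:102439116-102439163, - strand: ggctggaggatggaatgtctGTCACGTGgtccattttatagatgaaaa
Gla, chrX:134601173-134601221, - strand: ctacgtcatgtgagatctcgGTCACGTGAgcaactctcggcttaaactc
Glb1, chr9:114401008-114401055, + strand: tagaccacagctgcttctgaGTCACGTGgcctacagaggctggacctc
Lamp1, chr8:13159113-13159160, + strand: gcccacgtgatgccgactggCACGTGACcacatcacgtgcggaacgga
Atp6v0d1, chr8:105566041-105566089, - strand: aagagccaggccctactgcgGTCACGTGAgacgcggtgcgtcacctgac
Atp6v1a, chr16:44139364-44139411, - strand: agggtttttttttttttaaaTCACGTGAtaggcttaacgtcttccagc
Mcoln1, chr8:3500453-3500501, + strand: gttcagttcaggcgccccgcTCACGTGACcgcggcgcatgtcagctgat

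These matches began 14 bases before the start site in Ctsa, 99 in Ctsd, 51 in Lgmn, 196 in Gla, 50 in Glb1, 28 in Lamp1, 5 in Atp6v0d1, 132 in Atp6v1a and 46 in Mcoln1. Ctsa, Ctsd, Gla and Mcoln1 held a second match within the same window. A match is a description of the letters and says nothing of binding.

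**Figure D1:**
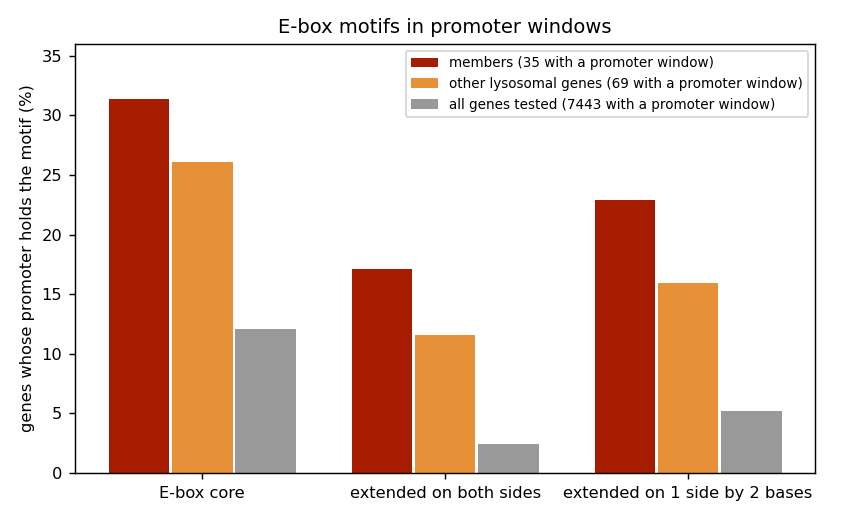
Share of genes (%) whose promoter window holds the E-box core or either extended form, for the 35 lysosomal genes, 69 other lysosomal genes and 7443 tested genes with a window. The core was in 31.4% of the lysosomal genes and in 12.1% of the tested genes.

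Between the groups, 13 of the 39 genes that passed the filter of a mean of at least 1 FPKM were higher in cko at an unadjusted p under 0.05, and 0 were lower. Of all 10779 genes tested, 11.4% were higher and 4.95% were lower at that threshold. The 13 were the peptidase genes Ctsc, Ctsl and Ctsz, the lipid-handling genes Npc2, Psap, Gm2a and Ppt1, the membrane protein genes Scarb2, Lamp1 and Cd68, and the pump genes Atp6v0c, Atp6v1a and Atp6v1b2, with log2 fold changes from 0.41 to 1.16. None of the 39 passed the methods threshold of the study (limma adjusted p under 0.05 and an absolute log2 fold change of at least 1), nor did any of the 10779 genes (0%), and the lowest adjusted p among the 39 was 0.202. At the threshold of its results (unadjusted p under 0.01 and an absolute log2 fold change above 1), 0 of the 39 passed against 2.29% of all genes. The median log2 fold change was 0.24 over the 39 genes and 0.09 over all genes tested.

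Both cko libraries lay above both wt libraries for 21 of the 39 genes, which was so for 33.6% of all genes tested, and both lay below for 0, which was so for 18% of all genes. An exact permutation test over 2 libraries a group has 0.333 as its smallest possible p. The values had not been rescaled between libraries. With median-of-ratios scaling, under which 7.63% of all genes were higher and 7.93% lower, 6 of the 39 were higher and 0 lower. Quantile normalisation, with 7.38% higher and 7.93% lower, left 7 higher and 0 lower. All 13 kept a positive sign under every alternative run.

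**Figure D2:**
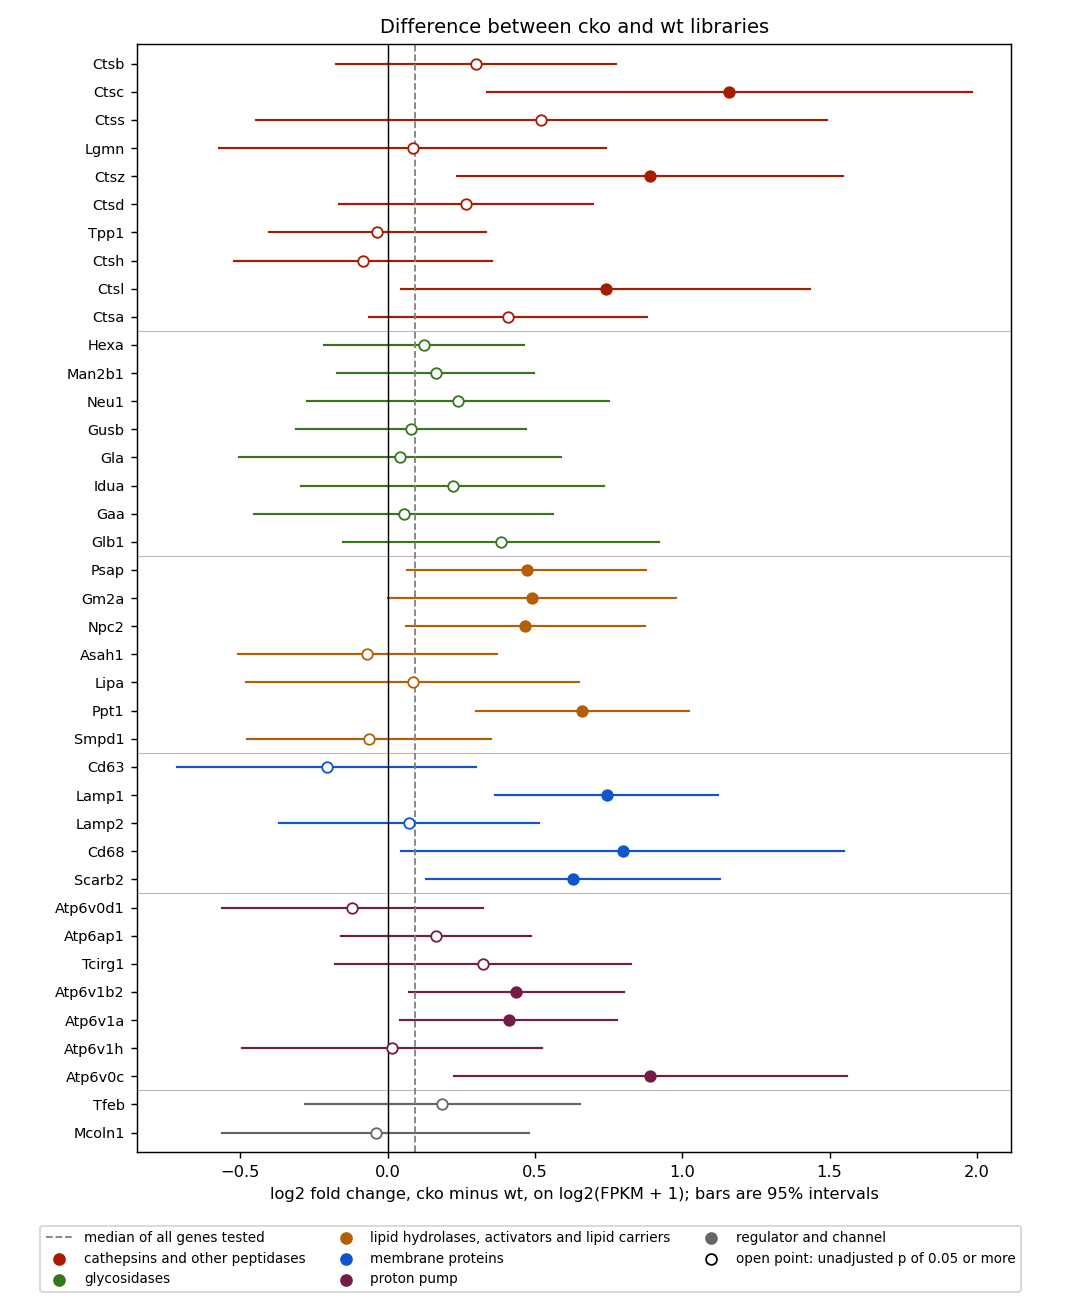
Log2 fold change (cko minus wt) of the 39 tested lysosomal genes on log2(FPKM + 1), with 95% intervals from limma, grouped by role and ordered by wt level within a group. Filled points are the 13 genes with an unadjusted p under 0.05, all to the right of 0, and the dashed line is the median of all genes tested at 0.09.

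Among the peptidases, 3 of 10 tested genes were higher and 0 lower, with a median log2 fold change of 0.35. Ctsc (chr7:88278085-88310888, + strand), whose product activates the serine proteases of neutrophil granules, was at 88.0 and 67.2 FPKM in the wt libraries and 125 and 240 FPKM in the cko libraries. Both cko libraries were above both wt libraries and cko replicate 2 was 1.93-fold above cko replicate 1. The log2 fold change of Ctsc was 1.16 ± 0.33 (SE, unadjusted p = 0.0142, limma adjusted p = 0.228), the largest of the 39. Ctsz (chr2:174427493-174439039, - strand), a carboxypeptidase, was at 34.1 and 34.5 FPKM in wt and 49.3 and 84.0 FPKM in cko, a difference of 0.89 ± 0.26 on the log2 scale (SE, unadjusted p = 0.0165, limma adjusted p = 0.233). For Ctsz the wt libraries nearly coincided, while the cko libraries differed 1.70-fold. Ctsl (chr13:64359337-64370890, - strand), a broadly acting endopeptidase, was at 12.2 and 9.76 FPKM in wt and 14.4 and 24.7 FPKM in cko, a difference of 0.74 ± 0.28 on the log2 scale (SE, unadjusted p = 0.0405, limma adjusted p = 0.284). Of the Ctsl exons, 26.8% overlap an antisense gene, and whether reads were counted by strand is not given in the sources used here, so its level is uncertain.

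The other tested peptidases did not pass the test, though both cko libraries lay above both wt libraries for Ctsa, Ctsb and Ctsd. Ctsb, in wt the highest of the 11 peptidases of the set, was at 119 and 113 FPKM in wt and 121 and 168 FPKM in cko, and its 95% interval reached from -0.18 to 0.77 on the log2 scale. For Ctss, which trims the invariant chain in antigen-presenting cells, wt libraries were at 69.7 and 50.5 FPKM and cko libraries at 57.5 and 127 FPKM, so that the groups overlapped and only cko replicate 2 stood high. Ctsh, at 11.998 and 10.1 FPKM in wt and 9.56 and 11.2 FPKM in cko, had an interval from -0.52 to 0.35. Ctsk, the collagen-degrading cathepsin of osteoclasts, was below the filter at 0.685 and 0.703 FPKM in wt and 0.494 and 0.449 FPKM in cko, which rest on 23, 20, 14 and 12 reads. Of 6 osteoclast markers in the files, Oscar and Atp6v0d2 were below 1 FPKM in all 4 libraries and Ocstamp reached 1.14 FPKM in cko replicate 2 alone, while Acp5, Itgb3 and Nfatc1, which other cells also express, lay between 3.30 and 23.5 FPKM. The remaining uncalled peptidase genes Ctsa, Ctsd, Lgmn and Tpp1 had log2 fold changes of 0.41, 0.27, 0.08 and -0.04, and 34.4% of the Ctsd exons overlap another gene on the same strand.

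**Figure D3:**
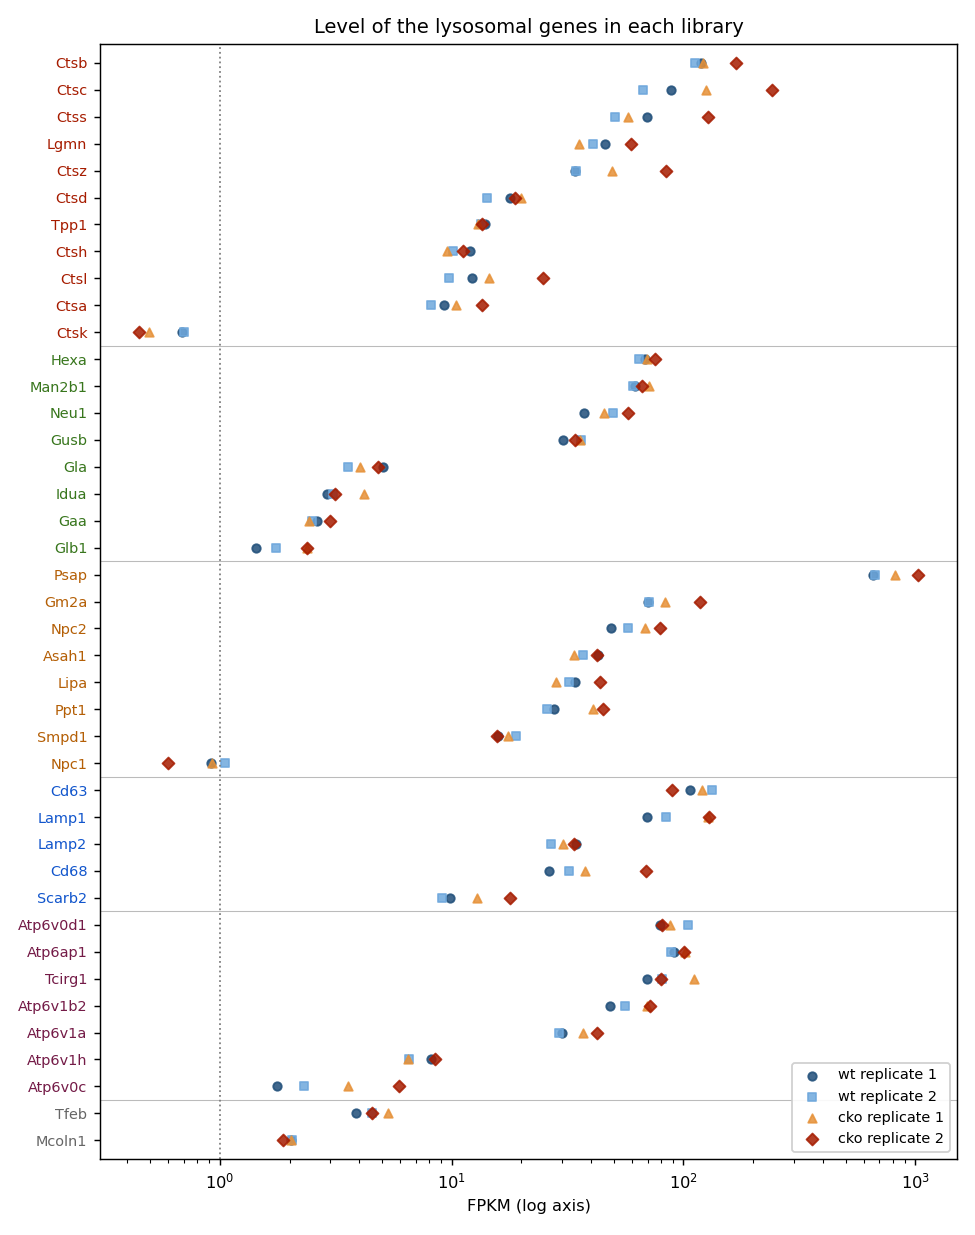
FPKM of the 41 lysosomal genes in each of the 4 libraries on a log axis, with gene names coloured by role and the dotted line at 1 FPKM. Psap stands highest, between 655 and 1032 FPKM, and Ctsk lowest, below 1 FPKM in every library.

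Glycosidase genes did not pass the test in either direction (0 of 8), although all 8 had a log2 fold change above 0, against 60.4% of all genes tested, with a median of 0.14. Their values ran from 0.04 for Gla to 0.39 for Glb1, and those of Gaa, Gla and Gusb turned negative with median-of-ratios scaling and quantile normalisation. Hexa, a subunit of the hexosaminidase that clears gangliosides, was at 68.1 and 64.5 FPKM in wt and 69.5 and 75.1 FPKM in cko, with an interval from -0.22 to 0.46. Man2b1, the acid mannosidase, was at 62.1 and 60.4 FPKM in wt and 71.1 and 66.3 FPKM in cko, with an interval from -0.17 to 0.50. The cko libraries lay just above the wt libraries for both genes, and the intervals leave out a change of 1 on the log2 scale in either direction.

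In the lipid group, 4 of 7 tested genes were higher and 0 lower, with a median of 0.47. Psap (chr10:60277627-60302597, + strand), which encodes the precursor of the saposins that present sphingolipids to their hydrolases, was by far the most abundant of the 41 at 655 and 670 FPKM in wt and 820 and 1032 FPKM in cko. Its log2 fold change was 0.47 ± 0.16 (SE, unadjusted p = 0.0295, limma adjusted p = 0.261). Gm2a (chr11:55098115-55113029, + strand), the activator that hands a ganglioside to hexosaminidase, was at 70.0 and 70.8 FPKM in wt and 83.6 and 118 FPKM in cko, a difference of 0.49 ± 0.20 on the log2 scale (SE, unadjusted p = 0.0499, limma adjusted p = 0.304). The hexosaminidase gene Hexa itself did not pass the test. Npc2 (chr12:84754562-84773152, - strand), the soluble carrier that takes cholesterol out of the lumen, was at 48.7 and 57.6 FPKM in wt and 68.2 and 79.4 FPKM in cko, a difference of 0.47 ± 0.16 on the log2 scale (SE, unadjusted p = 0.0308, limma adjusted p = 0.265). Its membrane-bound partner Npc1 was below the filter, at 0.919 and 1.06 FPKM in wt and 0.930 and 0.596 FPKM in cko.

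Ppt1 (chr4:122836242-122859175, + strand), the thioesterase that removes palmitate from proteins, was at 27.7 and 25.8 FPKM in wt and 40.7 and 45.1 FPKM in cko. Its replicates lay close together in both groups, and the log2 fold change was 0.66 ± 0.15 (SE, unadjusted p = 0.00465, limma adjusted p = 0.21). Of its exons, 3.51% overlap Cap1 on the opposite strand, a gene at 73.8 and 75.5 FPKM in wt and 46.6 and 49.4 FPKM in cko. The other lipid hydrolase genes Asah1, Smpd1 and Lipa had log2 fold changes of -0.07, -0.06 and 0.09, and each of the 3 overlapped between the groups.

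Of the membrane proteins, 3 of 5 were higher and 0 lower, with a median of 0.63. Lamp1 (chr8:13159161-13175338, + strand), a main structural glycoprotein of the lysosomal membrane, was at 69.3 and 83.7 FPKM in wt and 127 and 129 FPKM in cko, which gave 0.74 ± 0.15 on the log2 scale (SE, unadjusted p = 0.00332, limma adjusted p = 0.202). The cko libraries of Lamp1 lay within 1.02-fold of each other. Its relative Lamp2 was at 34.3 and 26.8 FPKM in wt and 30.3 and 33.8 FPKM in cko, with an interval from -0.37 to 0.51. Scarb2 (chr5:92441314-92506833, - strand), the receptor that delivers glucocerebrosidase to lysosomes, was at 9.84 and 9.10 FPKM in wt and 12.9 and 17.8 FPKM in cko, a difference of 0.63 ± 0.20 on the log2 scale (SE, unadjusted p = 0.0219, limma adjusted p = 0.25). Cd68 (chr11:69664213-69666153, - strand), a scavenger receptor of macrophage and monocyte lysosomes, was at 26.3 and 32.0 FPKM in wt and 37.7 and 69.3 FPKM in cko, a difference of 0.80 ± 0.30 on the log2 scale (SE, unadjusted p = 0.0411, limma adjusted p = 0.285). Cd63, a tetraspanin shared with granules and exosomes, had the most negative value of the 39, at 107 and 133 FPKM in wt and 120 and 89.0 FPKM in cko, with overlapping groups and an interval from -0.71 to 0.30. Over 858 bases Cd63 is 98.0% identical to a pseudogene, so the split of reads between these copies is uncertain.

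The proton pump genes gave 3 of 7 higher and 0 lower, with a median of 0.32. Atp6v1a (chr16:44085402-44139705, - strand), the catalytic subunit, was at 29.9 and 29.1 FPKM in wt and 36.8 and 42.4 FPKM in cko, a difference of 0.41 ± 0.15 on the log2 scale (SE, unadjusted p = 0.0348, limma adjusted p = 0.272). Atp6v1b2 (chr8:69088646-69113711, + strand), which pairs with it in the cytosolic ring, was at 48.1 and 56.1 FPKM in wt and 69.9 and 71.4 FPKM in cko, a difference of 0.44 ± 0.15 on the log2 scale (SE, unadjusted p = 0.0268, limma adjusted p = 0.257). Both subunits of the ATP-splitting ring were thus higher in each cko library than in either wt library. Atp6v0c (chr17:24163866-24169702, - strand), the proteolipid of the membrane rotor, was at 1.77 and 2.31 FPKM in wt and 3.56 and 5.91 FPKM in cko, a difference of 0.89 ± 0.27 on the log2 scale (SE, unadjusted p = 0.0176, limma adjusted p = 0.236). Over 465 bases it is 97.2% and 99.8% identical to pseudogenes, so the split of reads between the copies is uncertain. Tcirg1, the membrane subunit needed by osteoclasts, was at 69.4 and 80.6 FPKM in wt and 111 and 79.6 FPKM in cko, with cko replicate 2 inside the wt range. Neither of the 2 most abundant pump genes passed the test. Atp6ap1, an accessory subunit, was at 91.1 and 88.7 FPKM in wt and 101 and 100.2 FPKM in cko, and Atp6v0d1, of the membrane sector, was at 79.5 and 105 FPKM in wt and 87.2 and 80.9 FPKM in cko. Atp6v1h had a log2 fold change of 0.02.

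Tfeb, the transcription factor of this gene network, was at 3.86 and 4.54 FPKM in wt and 5.31 and 4.52 FPKM in cko. The groups overlapped, and the interval of its log2 fold change ran from -0.28 to 0.65. Mcoln1, the calcium release channel, was at 2.02 and 2.04 FPKM in wt and 2.03 and 1.87 FPKM in cko, with an interval from -0.56 to 0.48. Of the 12 higher genes with a promoter window, 2 held an extended E-box (16.7%), namely Lamp1 and Atp6v1a, whose sequences are given above, and of the 23 others 7 did (30.4%).

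The excess in cko was unequal between its libraries. Set against the wt mean, the median difference of the 39 genes was 0.21 in cko replicate 1 and 0.39 in cko replicate 2 on the log2 scale, where all genes tested had 0.09 in each. Of the 39 genes, 28 were higher in cko replicate 2 than in cko replicate 1 (71.8%), as were 51.2% of all genes tested, and all 13 genes past the threshold were among them. By role, that order held for 9 of 10 peptidases, 6 of 7 lipid genes, 4 of 5 membrane proteins, 5 of 8 glycosidases, 4 of 7 pump genes and neither Tfeb nor Mcoln1. Among 14 tested macrophage and Kupffer cell markers, 13 were higher in cko replicate 2 than in cko replicate 1, as were 7 of 8 monocyte, 8 of 8 hepatocyte and 3 of 3 lymphocyte markers tested. The same order held for 3 of 9 late neutrophil and 1 of 9 early neutrophil markers. Of the macrophage and Kupffer cell markers, Csf1r was at 40.9 and 33.0 FPKM in wt and 45.6 and 113 FPKM in cko, and Hmox1 at 84.3 and 68.7 FPKM in wt and 135 and 257 FPKM in cko. The Kupffer cell genes Clec4f and Vsig4 overlapped between the groups, at 38.5 and 24.0 FPKM and at 23.0 and 14.1 FPKM in wt and at 22.6 and 33.7 FPKM and at 13.3 and 17.7 FPKM in cko. Of the 14 tested, 3 markers were higher (21.4%) and 1 lower at the unadjusted threshold, against 11.4% and 4.95% of all genes tested. None of the whole list of 16 was at 0 in any library. The part of these cells in the lysosomal difference was not tested.

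**Figure D4:**
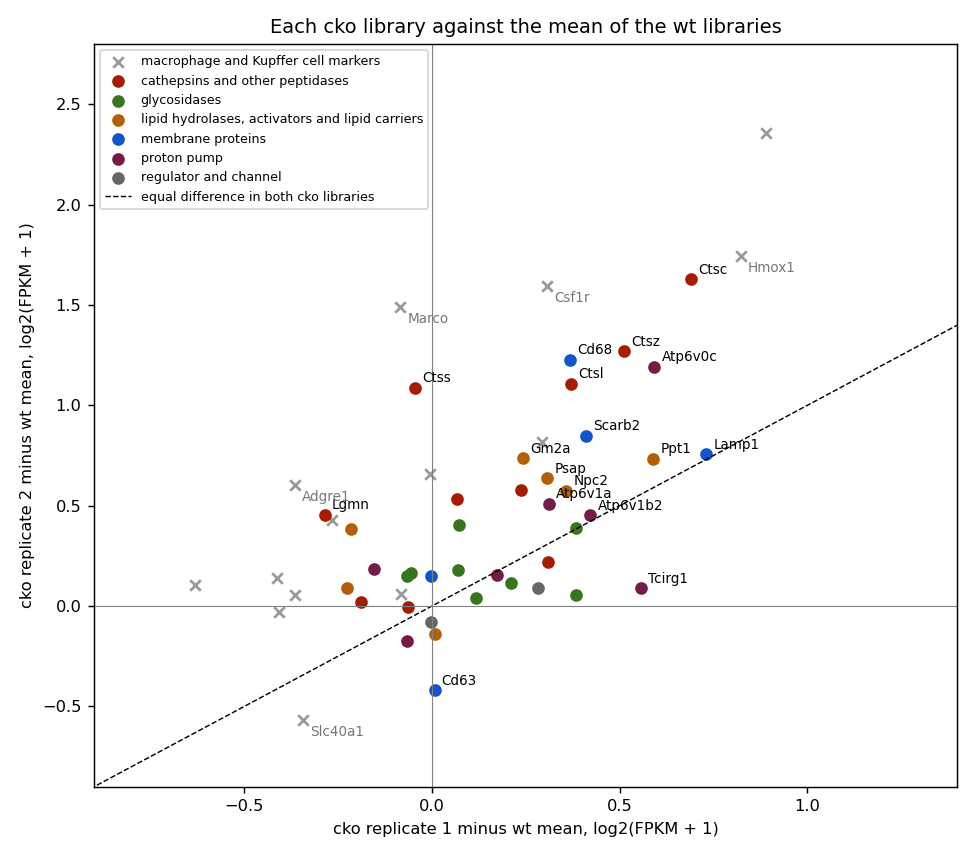
Difference of cko replicate 1 (x) and cko replicate 2 (y) from the mean of the wt libraries, on log2(FPKM + 1), for the 39 tested lysosomal genes by role and 14 macrophage and Kupffer cell markers (crosses). The dashed line marks an equal difference in both cko libraries, and 28 of the 39 genes and 13 of the 14 markers lie above it.

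The size of the differences depended on which library was left out. Each such fit leaves 1 library in a group, which is assumed to vary like those of the other group. The median log2 fold change of the 39 genes was 0.25 without wt replicate 1 and 0.26 without wt replicate 2. It was 0.39 without cko replicate 1 and 0.21 without cko replicate 2. All genes tested had medians of 0.08, 0.11, 0.09 and 0.09, in that order. Over the 4 cases the log2 fold change ran from 0.59 to 0.73 for Ppt1 and from 0.61 to 0.88 for Lamp1. Without cko replicate 2, the log2 fold change of Ctsc was 0.69, that of Cd68 was 0.37 and that of Ctsl was 0.37, whereas that of Lamp1 was 0.73 and that of Ppt1 was 0.59. The 3 X-linked genes Gla, Lamp2 and Atp6ap1 were not among the 13 that passed with all 4 libraries.

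**Figure D5:**
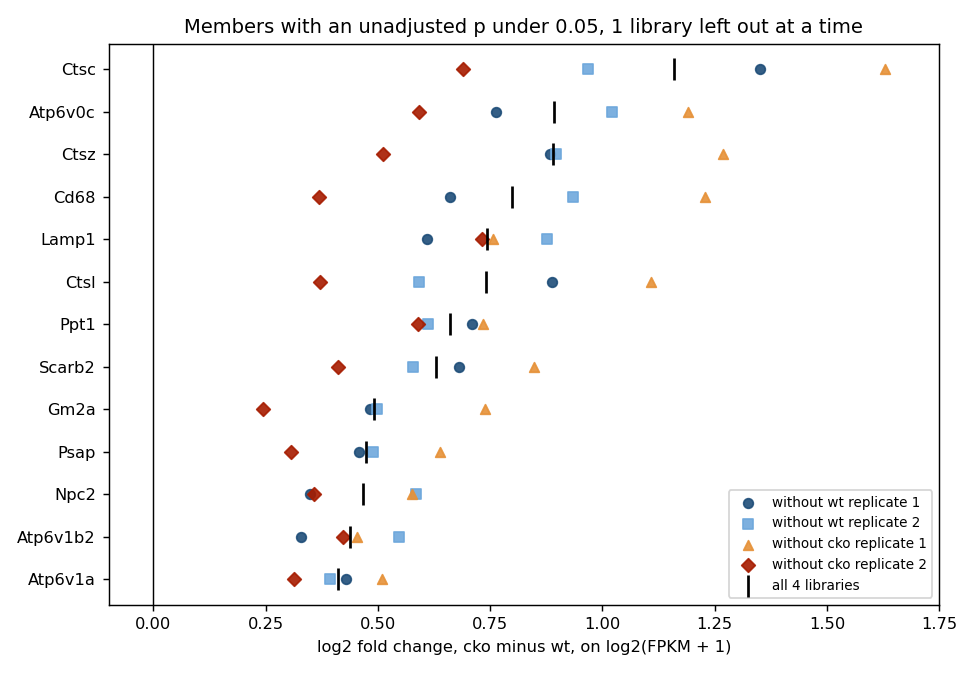
Log2 fold change (cko minus wt) of the 13 lysosomal genes with an unadjusted p under 0.05, with all 4 libraries (black bars) and with each library left out in turn (coloured points). All points lie right of 0, and those of Lamp1 and Ppt1 lie closest to their black bars relative to their size, while Ctsc ranges from 0.69 to 1.63.

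Lysosomal genes outside the set were examined from a list of 96, of which 93 were in the files and 83 passed the filter. Of the 83, 7 were higher and 7 lower at the unadjusted threshold, with a median log2 fold change of 0.11. The share higher was 8.43%, against 11.4% of all genes tested, and the share lower was also 8.43%, against 4.95%. Both cko libraries lay above both wt libraries for 33.7%, against 33.6% of all genes, and below for 17 of 83, against 18%. The median of all genes was 0.09. The order of the libraries and the median were thus near the background, while the share lower, on 7 genes, was above it. The list counts 8 cathepsin inhibitor genes, all tested, of which 3 were lower and 0 higher. The share lower therefore rests in part on these inhibitors. The 2 further groups of membrane proteins and of glycosidases with sulfatases had medians of 0.22 and 0.26. Further peptidases had a median of -0.10, with 0 higher and 0 lower of 6. The median was 0.02 for further lipid, phosphate and nucleic acid hydrolases, with 2 higher and 1 lower of 11. Sorting and regulation genes had 0.03 and cathepsin inhibitors -0.05. The higher genes included the sulfatase gene Arsa, at 1.42 and 2.45 FPKM in wt and 4.61 and 3.70 FPKM in cko, with a log2 fold change of 0.83. Naaa, an amidase that hydrolyses lipid amides, the membrane protein gene Tmem192 and the acid phosphatase gene Acp2 were higher by 0.74, 0.74 and 0.60 on the log2 scale. The further pump subunits gave 0 higher and 1 lower of 11, with a median of -0.03, and the lower gene was Atp6v0e, a small membrane-sector subunit, at 52.6 and 47.8 FPKM in wt and 31.3 and 33.9 FPKM in cko. Gnptab, whose product starts the mannose phosphate tag that sorts hydrolases to lysosomes, was at 10.70 and 10.71 FPKM in wt and 5.28 and 4.07 FPKM in cko, a difference of -1.05 ± 0.18 on the log2 scale (SE, unadjusted p = 0.0015, limma adjusted p = 0.183). Both cko libraries were thus below both wt libraries for Gnptab. The cathepsin inhibitor genes Stfa1 and Stfa3, members of a near-identical family whose reads may be split uncertainly, had log2 fold changes of -1.06 and -0.99. The smallest limma adjusted p among the 83 genes was 0.183.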

How the data were processed

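The files deposited by the authors hold FPKM of each gene in 1 library each, with Ensembl identifiers and positions; per the submitters' processing notes Bowtie2 2.2.3, TopHat2 2.0.12, HTSeq 0.6.0 and mm9 were used, though 92.6% of gene positions, and those of 40 of the 41 genes, were identical to GENCODE release 21 for mouse (GRCm38), the build printed here. Libraries were grouped by their labels. FPKM were used as deposited, not rescaled, so a fall in very abundant transcripts raises the FPKM of others. Differences (cko minus wt) were tested in R 4.3.3 with limma 3.58.1 (lmFit, eBayes with a trend, two-sided, no covariate) on log2(FPKM + 1). A mean of 1 FPKM or more was required, which 10779 genes met, with Benjamini-Hochberg adjustment over all of them; fold changes on this scale understate those of low genes. The fit was tested on simulated data. Whole reads were worked out from FPKM, exon length and library total for 98.1% of genes; 1 read in a 1 kb gene is 0.0450 to 0.0565 FPKM. The depth therefore limits genes near 1 FPKM most.

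The genes, their role groups and the list of other lysosomal genes were chosen with earlier results of these data known. Library values are given for genes with an unadjusted p under 0.05, the 2 highest genes by mean FPKM of each role group, the 3 largest positive and 3 largest negative log2 fold changes, and Tfeb, Mcoln1, Tcirg1 and Ctsk, and other lysosomal genes are named from the 10 largest changes past that threshold, some of which are not reported here. Alternatives were pseudocounts of 0.1 and 0.01, no filter or a mean of at least 5 FPKM, quantile and median-of-ratios scaling, rescaling after erythroid and hepatocyte genes were taken out, no trend, a replicate block, voom on reads and each library left out in turn.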

Additional observations from a re-analysis of the deposited data

How the results depend on the processing

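The number of lysosomal genes higher in cko at an unadjusted p under 0.05 was 6 with median-of-ratios scaling, 7 with quantile normalisation, 6 without a trend and 7 with the replicate block, and the number lower stayed 0 in these and all other settings. No label says that a replicate number is shared by a wt and a cko library, and the replicate differences of both groups correlated at -0.163 across genes, which are not independent. With erythroid and hepatocyte genes removed and the rest rescaled to 1 total the number was 19, and without a filter 9. The share of all genes tested that was higher was 21.7% and 6.81% in these settings, in that order. It was 11.0% without a trend and 8.42% with the replicate block. The number past the methods threshold was 0 in each setting, while voom on reads called 2 of all genes tested there. Each library left out in turn gave 3 to 16. Both pseudocounts, a mean of at least 5 FPKM and voom gave 12 or 13.

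The median log2 fold change of the set was 0.13 (median-of-ratios), 0.16 (quantile) and 0.45 (erythroid and hepatocyte genes removed), with 0.21 to 0.39 on leaving out a library. The median of all genes was -0.01, -0.02 and 0.26 in the same 3 settings. In that order, the medians were 0.026, 0.041 and 0.35 for glycosidases, 0.21, 0.23 and 0.53 for proton pump genes, -0.015, -0.048 and 0.23 for Tfeb with Mcoln1, and -0.0029, 0.011 and 0.30 for other lysosomal genes. With erythroid and hepatocyte genes removed and the rest rescaled to 1 total, lipid genes gave 0.68 and membrane proteins 0.82. That rescaling acts on all genes. Before it, the summed FPKM was 491983 and 457127 in wt and 412778 and 403900 in cko. The 9 erythroid markers held 0.343% to 0.755% of the sum of a library. Removal and rescaling were not run apart. The lipid genes gave 0.28 both without a filter, when Npc1 enters, and with voom. A mean of at least 5 FPKM gave 0.24 for the pump, when Atp6v0c drops out, and 0.042 for other lysosomal genes. Leaving out a library gave 0.15 to 0.56 for peptidases, 0.10 to 0.17 for glycosidases, 0.24 to 0.58 for lipid genes, 0.37 to 0.76 for membrane proteins, 0.19 to 0.39 for the pump, 0.01 to 0.14 for Tfeb with Mcoln1 and 0.019 to 0.12 for other lysosomal genes.

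Pdcd1 was at -0.49 (unadjusted p = 0.0624, from limma across all genes) with erythroid and hepatocyte genes removed and the rest rescaled to 1 total. Its log2 fold change ranged from -0.84 to -0.54 when a library was left out, with -0.55 without wt replicate 2.

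No gene passed the test in a setting that turned its sign, nor with all 4 libraries as reported. With median-of-ratios and quantile scaling, in that order, Lgmn was at -0.032 and -0.010, Gaa at -0.032 and -0.079, Gla at -0.055 and -0.072, Gusb at -0.037 and -0.010, Lipa at -0.031 and -0.00063, Lamp2 at -0.042 and -0.0065, and Atp6v1h at -0.090 and -0.10. With erythroid and hepatocyte genes removed and the rest rescaled to 1 total, Ctsh was at 0.11, Tpp1 at 0.16, Asah1 at 0.14, Smpd1 at 0.14, Cd63 at 0.0033, Atp6v0d1 at 0.090 and Mcoln1 at 0.10. When a library was left out, values ran from -0.19 to 0.028 for Ctsh, -0.044 to 1.09 for Ctss, -0.29 to 0.45 for Lgmn, -0.056 to 0.17 for Gaa, -0.16 to 0.25 for Gla, -0.047 to 0.20 for Gusb, -0.23 to 0.090 for Asah1, -0.18 to 0.057 for Smpd1, -0.22 to 0.39 for Lipa, -0.10 to 0.25 for Lamp2, -0.42 to 0.0071 for Cd63, -0.32 to 0.079 for Atp6v0d1 and -0.16 to 0.19 for Atp6v1h. Of 383 values of single genes in the other settings, 325 kept their side and sign, and of 156 with a library left out 102 did. With the exceptions stated, the cause of these shifts was not tested.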

Other observations

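The granule serine proteases that the product of Ctsc activates are encoded by Elane, Prtn3 and Ctsg, 3 genes of a list of 9 early neutrophil markers that were singled out after their values were seen. In that list, 3 genes were higher in cko at the unadjusted threshold, among them Elane and Prtn3, and 1 was lower. The shares over all genes tested were 11.4% higher and 4.95% lower. Elane was at 617 and 646 FPKM in wt and 945 and 749 FPKM in cko, with a log2 fold change of 0.41. Prtn3 was at 267 and 249.6 FPKM in wt and 538 and 449.6 FPKM in cko, with a log2 fold change of 0.93. Ctsg was at 81.0 and 63.8 FPKM in wt and 98.5 and 85.6 FPKM in cko, with both cko libraries above both wt libraries. Unlike Ctsc, these 3 genes were higher in cko replicate 1 than in cko replicate 2.

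Lyz2, which encodes the lysozyme of phagocytes and carries LysM-Cre, was at 31306 and 32147 FPKM in wt and 10422 and 8127 FPKM in cko, a log2 fold change of -1.79 ± 0.18 (SE, unadjusted p = 0.000109, limma adjusted p = 0.183). For Lyz2 too, the Cre allele at this gene and loss of PD-1 cannot be told apart.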
